A study of Mus musculus with 35 samples.

Results

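Described here are 9 genes of innate immune recognition in sorted mouse microglia. They are the Toll-like receptors Tlr2, Tlr3, Tlr4, Tlr6, Tlr7, Tlr9 and Tlr13, the co-receptor Cd14 and the adaptor Myd88. The genes were taken by symbol from a table of raw read counts for 21236 genes, in which all 9 were present, and each was measured in all 35 samples. No further filter on low counts was applied to them.

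Microglia, the resident macrophages of the brain, were sorted from the midbrain, striatum and prefrontal cortex (PFC) of 12 mice, 6 male and 6 female, and their RNA was sequenced in bulk. All animals were adult, heterozygous for Tmem119-2A-CreERT2 and the Ai14(RCL-tdTomato)-D reporter, and treated with tamoxifen, so no sample shows these cells without the Cre allele, the reporter or the drug. Each combination of region and sex held 6 samples, except for 5 from the PFC of males. The reporter marks cells in which the Tmem119 locus drove Cre, and brain cells without that history were not part of the sort.

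Toll-like receptors are membrane proteins that bind conserved molecules of microbes and of damaged cells. Some act at the cell surface on lipids and lipoproteins, others in endosomes on nucleic acids, and nearly all of them signal through the adaptor Myd88 to NF-kappaB and to the transcription of cytokine genes. Microglia carry most of this system among brain cells, and Cd14 hands lipopolysaccharide and other ligands to the surface receptors.

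Counts were scaled for library size (CPM) with edgeR's TMM factors. Total counts ran from 37680501 to 54131421 per sample, and 3 counts corresponded to 0.0554 to 0.0796 CPM. Transcripts that mark microglia were abundant in every sample, with Tmem119 between 2778 and 3861 CPM and P2ry12 between 5481 and 9405 CPM. Neuronal markers summed to 3.38 to 9.08 CPM in the midbrain, 9.79 to 22.5 CPM in the striatum and 15.2 to 41.2 CPM in the PFC. In the same order astrocyte markers summed to 220.0 to 284.5, 279.4 to 511 and 272.5 to 578 CPM. Slc1a3 was the largest of them, with a mean of 209 CPM. Oligodendrocyte markers summed to 304.5 to 509.5, 299.1 to 838 and 231.1 to 526.6 CPM, with Cnp the largest (mean 162.9 CPM). One midbrain sample stood apart with 130.9 CPM of border macrophage markers, mostly Ms4a7, and one PFC sample with 42.2 CPM of neutrophil markers, and the part of these samples in the results was tested only by leaving out each mouse in turn. The column of one male striatum sample, that of mouse 3, carries a PFC name in the count table while its label says striatum. It was kept as striatum, and the tests were repeated without it. Tlr2, Tlr13 and Cd14 then kept their calls between regions, and Tlr6 lost its region effect. As these are bulk samples, fewer cells of a type and less RNA per cell cannot be told apart.

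Upstream sequence is shown for Tlr2, Tlr6 and Tlr13, the receptors of the 9 genes that differed between regions. For 6 of the 9 genes, promoters were taken from a table of RefSeq promoters. The sequences below, from RefSeq on GRCm38.p6, run 5′ to 3′ along the gene's strand and end where the annotated gene begins. Capitals mark a match to a searched motif.
Tlr2 (chr3:83841768-83841858, minus strand): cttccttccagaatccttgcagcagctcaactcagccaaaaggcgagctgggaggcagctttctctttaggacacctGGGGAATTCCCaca
Tlr13 (chrX:106143025-106143203, plus strand): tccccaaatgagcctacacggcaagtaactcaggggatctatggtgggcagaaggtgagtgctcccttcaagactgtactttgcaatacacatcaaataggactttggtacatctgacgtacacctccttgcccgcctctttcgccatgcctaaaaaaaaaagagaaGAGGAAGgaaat
Tlr6 (chr5:64960098-64960298, minus strand): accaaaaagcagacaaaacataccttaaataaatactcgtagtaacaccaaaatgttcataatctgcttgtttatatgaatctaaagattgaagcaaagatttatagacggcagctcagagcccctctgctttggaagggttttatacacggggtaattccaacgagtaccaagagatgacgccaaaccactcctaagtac

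Both strands of the 250 bases before each start site were searched for the NF-kappaB consensus, for the PU.1 motif GAGGAAG, for the interferon-stimulated response element GAAANNGAAA and for the AP-1 motif TGANTCA. Positions are counted back from the RefSeq start site, which for Tlr2 and Tlr13 lies inside the annotated gene, beyond the end of the stretch printed above. Tlr2 held 2 overlapping copies of the NF-kappaB consensus, the first beginning 173 bases before that start site. Over all 32841 promoters of the table, 3.90% held this consensus. It was chosen after the sequences were read, so that share does not measure how unusual the match is. In Tlr13 a PU.1 motif began 83 bases before the RefSeq start site, as found in 10.6% of promoters. The Tlr6 sequence printed above held no match, whereas a second, downstream start site of Tlr6 was preceded by 2 overlapping interferon elements on the opposite strand, a motif in 2.98% of promoters. Myd88 held an interferon element that began 40 bases before its RefSeq start site. Tlr9 held a PU.1 and an AP-1 motif (the latter in 6.75% of promoters), and Tlr3 the NF-kappaB consensus. These are matches of letters only.

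Levels were first compared between the 9 genes per length of exon, as CPM per kb (FPKM). Cd14 was the most abundant at 536 ± 149 FPKM (SD, n = 35), and no sample of another gene reached its lowest value of 349. Tlr2 followed at 128 ± 38.2 FPKM and Myd88 at 83.5 ± 18.8 FPKM. Their ranges over the samples overlapped, although Tlr2 was above Myd88 in 35 of 35 samples.

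Tlr13 and Tlr7, both receptors for RNA in endosomes, were next at 55.7 ± 7.04 and 38.4 ± 3.24 FPKM (SD, n = 35). The lipopolysaccharide receptor Tlr4 reached 22.2 ± 3.58 FPKM, Tlr3 14.0 ± 1.85 FPKM and Tlr6 10.2 ± 1.32 FPKM. Tlr9, the receptor for unmethylated DNA, was the lowest with 0.928 ± 0.301 FPKM, which still rested on at least 65 reads in every sample. Every neighbouring pair in this order overlapped in range except Cd14 and Tlr2, Tlr7 and Tlr4, and Tlr6 and Tlr9.

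**Figure D1:**
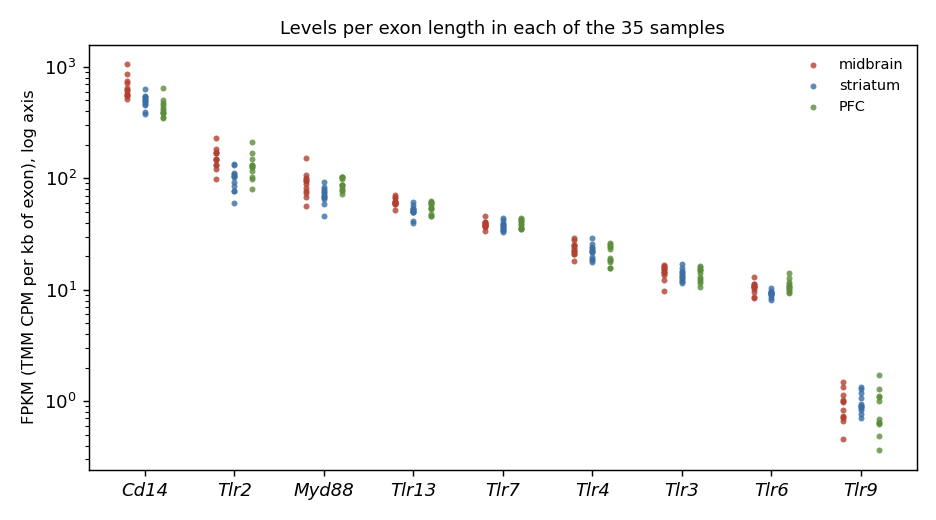
Level of each gene per kb of exon (FPKM, log axis) in each of the 35 samples, coloured by brain region, with genes ordered by their mean. Cd14 lies above 349 FPKM in every sample, and Tlr9 does not exceed 1.72 FPKM in any sample.

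The question of the study was whether microglia differ between these brain regions. Of the 9 genes, 4 had a main effect of region at an adjusted p under 0.05 (edgeR quasi-likelihood F-test, Benjamini-Hochberg over all genes), beside 8.89% of all genes tested and 11.5% of the 8623 genes with a mean of at least 8 CPM. They were Cd14, Tlr13, Tlr2 and Tlr6. The 9 genes were chosen with earlier results of these data known, so their share is not independent of those results. Cd14 was lowest in the PFC, and Tlr2, Tlr6 and Tlr13 were lowest in the striatum. The highest mean was in the midbrain for Cd14, Tlr2 and Tlr13, but in the PFC for Tlr6 (41.0 CPM, against 39.1 CPM in the midbrain). Tlr3, Tlr4, Tlr7 and Tlr9 did not pass the test, with adjusted p-values of 0.781, 0.456, 0.701 and 0.88. Myd88 lay next to the threshold at an adjusted p of 0.0544, and at 0.0271 with the mouse as a block, where 14% of all genes passed. It was under 0.05 in 11 of 25 alternatives, DESeq2 among them (0.0289).

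For pairs of regions a gene was called when it had the region effect, an unadjusted p under 0.05 and a fold change above 1.2. In the PFC, 1 of the 9 genes was lower than in the midbrain by this rule (3.24% of all genes were). Striatum against midbrain gave 3 lower genes (2.98% of all genes) and striatum against PFC 1 lower gene (0.833% of all genes). None of the 9 genes was called higher outside the midbrain, a direction taken by 2.75% of all genes in the PFC and 3.5% in the striatum. The median log2 fold change of the 9 genes was -0.18 for striatum over midbrain, against 0.01 for all genes.

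**Figure D2:**
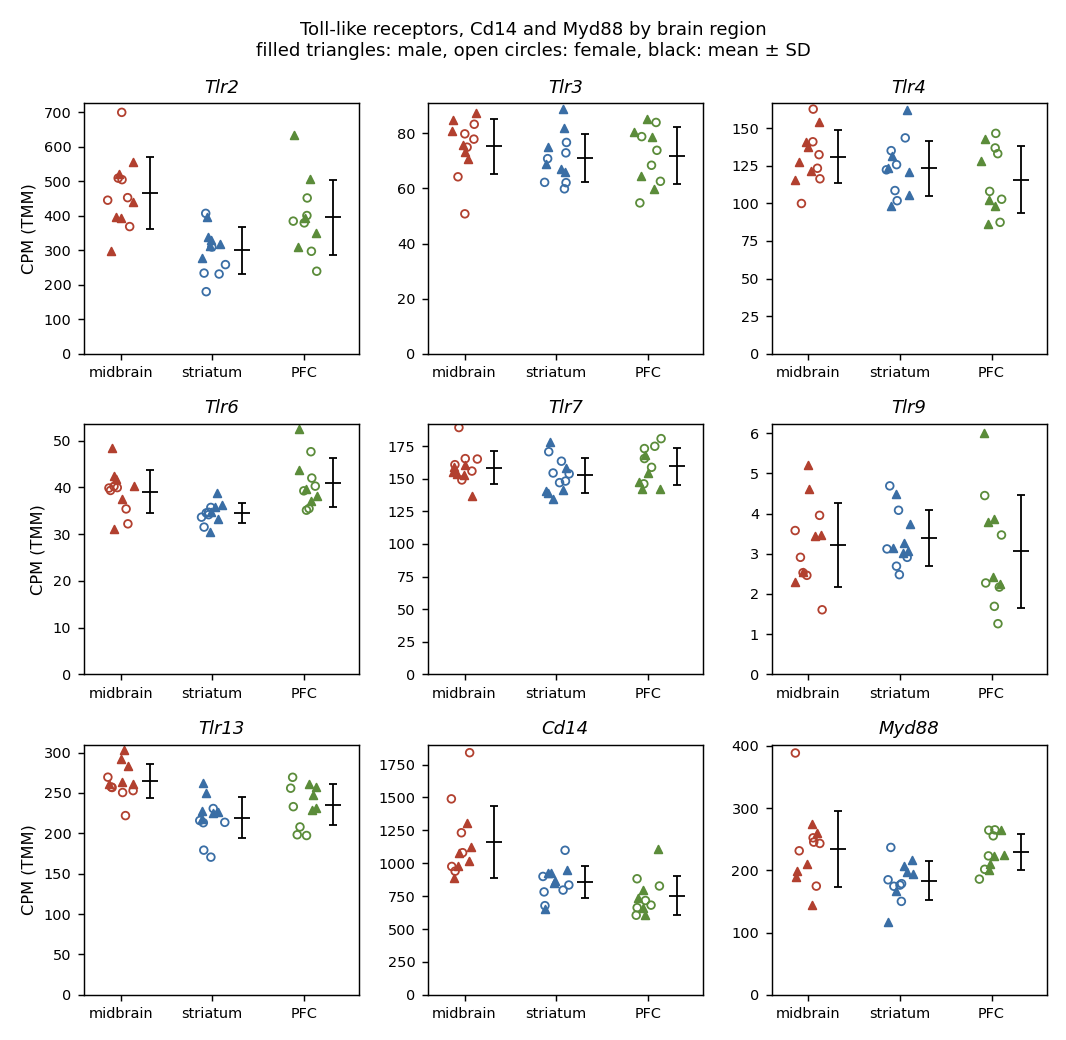
Level of each of the 9 genes in CPM by brain region, 1 panel per gene with its own axis from 0; filled triangles are male and open circles female samples, and the black bar beside each group is its mean ± SD (n = 12 for midbrain and striatum, 11 for PFC). Cd14 is highest in the midbrain, Tlr2 and Tlr6 are lowest in the striatum, and Tlr3, Tlr7 and Tlr9 show groups that lie over each other.

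At the cell surface, the co-receptor Cd14 (ENSMUSG00000051439, chromosome 18, minus strand) had the lowest adjusted p of the 9 genes for the region effect (1.68e-04, edgeR). Its level was 884.8 to 1840 CPM in the 12 midbrain samples (median 1080), 651 to 1099 CPM in the striatum (median 857) and 605 to 1111 CPM in the PFC (median 717). Of the 11 PFC samples, 10 lay below the lowest midbrain sample, and of the 12 striatum samples, 7 did. The log2 fold change of PFC over midbrain was -0.62 ± 0.11 (SE; adjusted p = 1.03e-04, edgeR), a 1.54-fold lower level. Striatum over midbrain was -0.44 ± 0.10 (adjusted p = 0.00605), a 1.36-fold lower level. Striatum over PFC was 0.18 ± 0.11 on the log2 scale (adjusted p = 0.523) and was not called, but in mice 1 to 6 alone it was 0.31 (adjusted p = 0.399) and passed the rule for pairs of regions, which uses the unadjusted p.

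Within mice, the PFC had less Cd14 than the midbrain in 11 of 11 animals, and the striatum had less in 11 of 12. The within-mouse log2 differences of PFC and midbrain ran from -1.15 to -0.23. Mouse 3 gave the lowest striatal Cd14 at 651 CPM. Without that sample striatum over midbrain was -0.41 (adjusted p = 0.0122).

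Tlr2 (ENSMUSG00000027995, chr3:83836272-83841767, minus strand) forms dimers with Tlr1 or Tlr6 that bind bacterial lipoproteins. It ranged from 298.9 to 699.9 CPM in the midbrain (median 448.9), from 179.9 to 407 CPM in the striatum (median 311) and from 239 to 634.7 CPM in the PFC (median 384.5). All 12 striatum samples lay below the midbrain median, 5 of them below the lowest midbrain sample, and 10 of 12 lay below the PFC median. The log2 fold change was -0.65 ± 0.13 for striatum over midbrain (SE; adjusted p = 0.0017, edgeR) and -0.41 ± 0.14 for striatum over PFC (adjusted p = 0.171). These are 1.57-fold and 1.33-fold lower levels. PFC over midbrain was -0.24 ± 0.14 (adjusted p = 0.392). In 11 of 12 mice the striatum had less Tlr2 than the midbrain, and in 9 of 11 it had less than the PFC.

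Tlr6 (ENSMUSG00000051498, chr5:64952031-64960097, minus strand), a partner of Tlr2 for diacylated lipopeptides, was also lowest in the striatum, but by less. It lay between 31.2 and 48.4 CPM in the midbrain (median 39.9), 30.4 and 38.7 CPM in the striatum (median 34.6) and 35.1 and 52.5 CPM in the PFC (median 39.7). Of the 12 striatum samples, 8 were below the lowest PFC sample, and within mice the striatum was lower than the PFC in 11 of 11 animals. The log2 fold change of striatum over PFC was -0.25 ± 0.07 (SE; adjusted p = 0.0634, edgeR), below the minimum fold of 1.2, so that no pair of regions was called. The region effect of Tlr6 (adjusted p = 0.0237) reached 0.148 once an index of other brain cells (markers of neurons, astrocytes, oligodendrocytes and endothelium) was added as a covariate, and 0.05 without the striatum sample of mouse 3.

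Tlr4 (ENSMUSG00000039005, chr4:66827584-66930284, plus strand), which recognises lipopolysaccharide together with Ly96 and Cd14, did not pass the region test. Its means were 131 ± 17.4 CPM in the midbrain (SD, n = 12), 123 ± 18.6 CPM in the striatum (n = 12) and 116 ± 22.3 CPM in the PFC (n = 11). The PFC samples spread from 86.4 to 146.5 CPM and overlapped both other regions, with 3 of 11 below the lowest midbrain sample. Within mice the PFC had less Tlr4 than the midbrain in 9 of 11 animals. PFC over midbrain was -0.18 ± 0.09 on the log2 scale (adjusted p = 0.331, edgeR).

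Among the endosomal receptors, Tlr13 (ENSMUSG00000033777, chrX:106143204-106160493, plus strand), which senses bacterial ribosomal RNA, was the one that differed by region. Its level was 222 to 303.4 CPM in the midbrain (median 261), 170.6 to 262.6 CPM in the striatum (median 221) and 197 to 269.5 CPM in the PFC (median 233). In the striatum, 6 of 12 samples lay below the lowest midbrain sample, and in the PFC 3 of 11 did. Striatum over midbrain was -0.27 ± 0.05 on the log2 scale (SE; adjusted p = 0.00128, edgeR), a 1.21-fold lower level, and 11 of 12 mice had this direction. PFC over midbrain was -0.16 ± 0.06 (adjusted p = 0.0805), with 10 of 11 mice lower in the PFC. The fold of Tlr13 was close to the minimum of 1.2, and it fell under it without mouse 10 (log2 fold change -0.24) or mouse 11 (-0.26). With the index of other brain cells as a covariate the region effect had an adjusted p of 0.0612.

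Tlr7 (ENSMUSG00000044583, chrX:167304929-167330558, minus strand), a sensor of single-stranded RNA, was the steadiest of the 9 genes. It ranged from 136.6 to 189.3 CPM in the midbrain, 134.5 to 178.3 CPM in the striatum and 142.1 to 180.8 CPM in the PFC, a coefficient of variation of 8.43% over all samples. The largest regional log2 fold change of Tlr7 was -0.06 ± 0.05, for striatum over PFC.

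Tlr3 (ENSMUSG00000031639, chr8:45395665-45411080, minus strand), which binds double-stranded RNA and signals through Ticam1 instead of Myd88, had means of 75.3 ± 10 CPM in the midbrain (SD, n = 12), 71.0 ± 8.67 CPM in the striatum (n = 12) and 71.9 ± 10.4 CPM in the PFC (n = 11). Tlr9 (ENSMUSG00000045322, chr9:106222598-106226883, plus strand) had means of 3.22 ± 1.03, 3.39 ± 0.703 and 3.06 ± 1.40 CPM. Its spread in the PFC, 1.26 to 5.99 CPM, covered the whole range of the midbrain and striatum. The SE of its log2 fold changes was 0.19. Tlr3 overlaps an antisense gene, Gm45542, and the use of strand in counting is not given in the sources used here, so reads of the pair cannot be told apart.

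The adaptor Myd88 (ENSMUSG00000032508, chr9:119335934-119341411, minus strand), which links nearly all of these receptors to their kinases, followed the order of Tlr2. It lay between 145.1 and 388.4 CPM in the midbrain (median 237), 117.4 and 236.7 CPM in the striatum (median 182) and 185.8 and 264.9 CPM in the PFC (median 223). All 12 striatum samples were below the midbrain median, and 7 of them below the lowest PFC sample. Striatum over midbrain was -0.35 ± 0.11 on the log2 scale (SE; adjusted p = 0.0403, edgeR) and striatum over PFC -0.31 ± 0.11 (adjusted p = 0.199). Neither was called, because the region effect missed the threshold.

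With the mouse as a block Myd88 was called as lower in striatum than midbrain (log2 fold change -0.33, adjusted p = 0.0176) and than in the PFC (-0.28, adjusted p = 0.104). Then 4 of the 9 genes were lower in striatum than midbrain, in a fit that called 8.62% of all genes in either direction, and 2 were lower than in the PFC, where 4.86% were called. Striatal Myd88 was below that of the midbrain in 10 of 12 animals and below that of the PFC in 10 of 11. Exons of Myd88 touch those of Acaa1a on the opposite strand, which is in the table too, and reads from the shared stretch cannot be told apart.

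**Figure D3:**
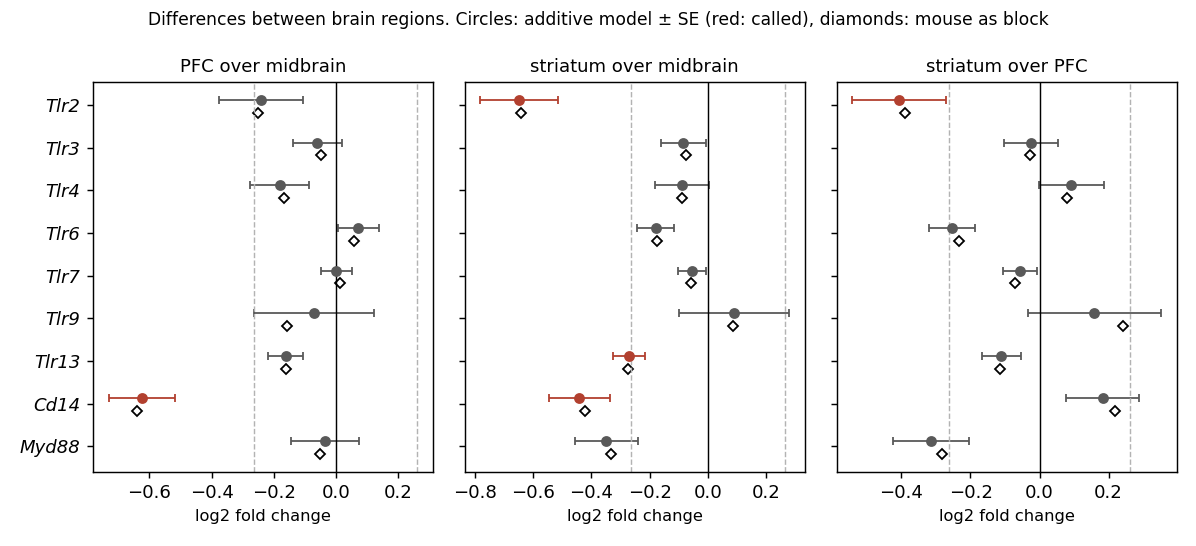
Log2 fold changes of the 9 genes for the 3 pairs of regions from the additive model of region and sex (circles, ± SE; red where the gene was called) and with the mouse as a block (diamonds). Dashed lines mark a fold change of 1.2; Cd14 lies beyond it for PFC over midbrain at -0.62 and Tlr2 for striatum over midbrain at -0.65.

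Values were also computed apart for mice 1 to 6 and mice 7 to 12. Cd14 gave -0.70 for PFC over midbrain among mice 1 to 6 and -0.59 among mice 7 to 12, with adjusted p-values of 0.0177 and 0.0102 (edgeR). For striatum over midbrain Tlr2 gave -0.40 (adjusted p = 0.331) in mice 1 to 6 and -0.89 (adjusted p = 0.00917) in mice 7 to 12, and Myd88 gave -0.13 (adjusted p = 0.784) and -0.55 (adjusted p = 0.0185). The direction was the same in both sets of mice for each of these. Whether the size differed between the sets was not tested.

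**Figure D4:**
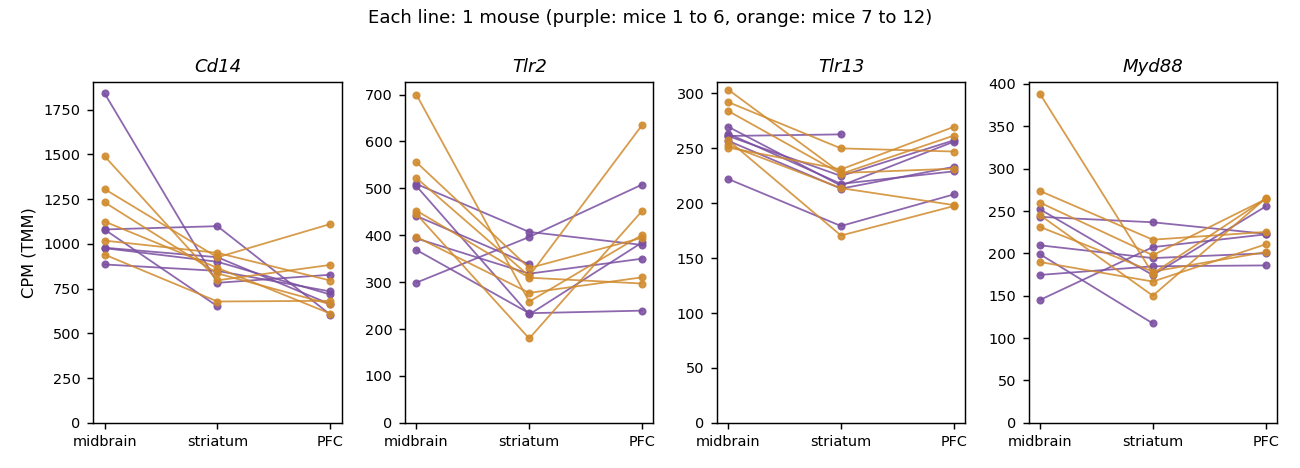
Level of Cd14, Tlr2, Tlr13 and Myd88 in CPM in the midbrain, striatum and PFC of each mouse, 1 line per mouse; mouse 3 has no PFC sample. Cd14 falls from midbrain to PFC in 11 of 11 mice, and Tlr2, Tlr13 and Cd14 fall from midbrain to striatum in 11 of 12.

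Sex was the other factor of the design. None of the 9 genes was called between males and females (0 of 9, beside 4.13% of all genes called by edgeR at an unadjusted p under 0.05 and a fold above 1.2), and DESeq2 and limma-voom gave 0 of 9 too. Tlr13 and Tlr7, which both lie on the X chromosome, were the genes with an unadjusted p under 0.05 (2 of 9, beside 8.02% of all genes), in opposite directions and with folds below 1.2. Tlr13 had a median of 273.6 CPM in males and 254.9 CPM in females in the midbrain, 227 and 213 CPM in the striatum, and 247 and 220.5 CPM in the PFC. Males were thus above females in the median of each region, with ranges that overlapped. Male over female was 0.15 ± 0.05 on the log2 scale (adjusted p = 0.164, edgeR), and by DESeq2 0.16 (adjusted p = 0.0425). The limma-voom fit with the mouse as a random effect, which does not count samples of a mouse as independent, gave 0.16 (adjusted p = 0.464). Over the alternatives the adjusted p of Tlr13 ran from 0.0425 to 0.713.

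Tlr7 went the other way at -0.10 ± 0.04 (adjusted p = 0.398, edgeR), with medians of 154 CPM in males and 163 CPM in females in the midbrain, 140.9 and 154 CPM in the striatum, and 147 and 169 CPM in the PFC. The other 7 genes had unadjusted p-values above 0.05, and Tlr9 (log2 0.30 ± 0.16, adjusted p = 0.67 by edgeR) was called higher in males when mouse 3, 6, 9 or 12 was left out (log2 0.34 to 0.37). The interaction of sex and region passed an adjusted p of 0.05 for 0 of the 21236 genes by edgeR, and 632 (2.98%) had an unadjusted p under 0.05. None of the 9 genes was among those. The lowest interaction p of the 9 genes was that of Tlr2 at 0.111, whose medians in the midbrain were 418.7 CPM in males and 478.7 CPM in females, and in the striatum 324 and 246 CPM.

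How the 9 genes moved together was described by correlations of log2 CPM over the 35 samples taken on deviations from the mean of the sample's own region and sex. The samples share mice and a sequencing run, and no test was made. Cd14, Tlr2 and Myd88 rose and fell together, with Pearson's r of 0.76 for Tlr2 and Myd88, 0.65 for Cd14 and Myd88 and 0.55 for Tlr2 and Cd14. Tlr3, Tlr4 and Tlr7 formed another group, with r of 0.71 for Tlr4 and Tlr7, 0.61 for Tlr3 and Tlr4 and 0.54 for Tlr3 and Tlr7. Between the groups every r was negative, from -0.69 for Tlr4 and Myd88 to -0.38 for Tlr2 and Tlr7. Over all 35 samples Tlr6, Tlr9 and Tlr13 had no r beyond 0.40 in size with any of the other genes.

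The ends of this pattern could be seen in single samples. The midbrain sample of mouse 12 had the highest Tlr2 and Myd88 of all samples, 699.9 and 388.4 CPM, and the lowest Tlr3 at 50.8 CPM. By contrast, the striatum sample of mouse 3 had the lowest Myd88 of all samples, 117.4 CPM, the lowest striatal Cd14 and the highest Tlr3, at 89.0 CPM. In the 33 samples without these, r was 0.86 for Tlr2 and Myd88 and -0.58 for Tlr4 and Myd88. Tlr6 then had r of 0.53 with Tlr4, 0.44 with Tlr7, -0.50 with Cd14 and -0.44 with Myd88, larger than over all samples, and Tlr3 and Tlr13 had 0.41. Myd88 also moved with an index of 18 transcripts that rise in microglia during tissue dissociation (r = 0.50), as did Tlr2 (0.35) and Cd14 (0.32), while Tlr13 had r = -0.40. With this index as a covariate, 4 of the 9 genes had a region effect. The share of all genes that passed in that fit is not given here. The part of dissociation in the region effects and in the covariation was not tested.

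**Figure D5:**
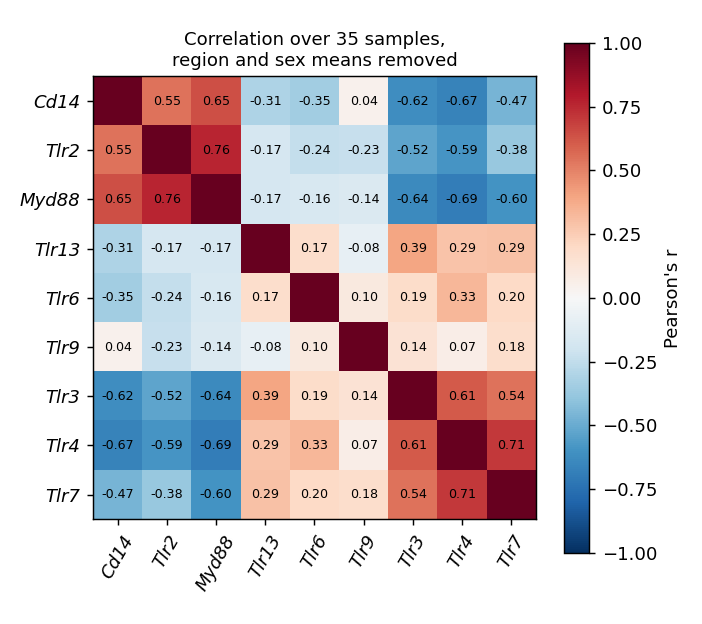
Pearson's r of log2 CPM between the 9 genes over 35 samples on deviations from the mean of the sample's region and sex, red for positive and blue for negative values. Cd14, Tlr2 and Myd88 have positive r with each other (0.55 to 0.76) and negative r with Tlr3, Tlr4 and Tlr7 (-0.69 to -0.38).

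Among all genes with a mean of at least 8 CPM, those most like each of the 9 over the 35 samples were listed by Pearson's r of log2 CPM, as a description without a test. Tlr2 was most like Birc3 (r = 0.91), Eif1a (0.88) and Cxcl10 (0.88), and Myd88 most like Rrad (0.91), Zfp622 (0.90) and Ube2s (0.89). Cd14 followed Tpd52 (0.84), Ptger4 (0.84) and Nupr1 (0.83), and Tlr13 followed Mgat4a (0.82), Rbpj (0.75) and Mbnl1 (0.72). For Tlr4 the nearest genes were Il13ra1 (0.78), Calhm2 (0.78) and Irf9 (0.76), and for Tlr3 they were Nedd1 (0.74), Tor4a (0.73) and Morc3 (0.72). Tlr7 was nearest to Tgfbr1 (0.67), Brip1os (0.66) and Yipf6 (0.63) and Tlr6 to Zc3hc1 (0.67), Tubb5 (0.66) and Commd8 (0.65). Tlr9, the lowest gene, had no neighbour above 0.49, the values being 0.49 for Fbxo11, 0.48 for Pigt and 0.46 for its adaptor Tirap.

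The remaining parts of the pathway were examined together with the dissociation transcripts, in 8 lists with 101 genes of the table. Of the 101, 18 are the dissociation transcripts and not parts of the pathway. A region effect was found for 21 of the 101 (20.8%), beside 8.89% of all genes and 11.5% of genes with a mean of at least 8 CPM. With the mouse as a block it was found for 35, where 14% of all genes passed. The lists were chosen with earlier results of these data known, so these shares are not independent of them. Of the 5 other Toll-like receptors in the table, 3 had a region effect. Tlr1, the second partner of Tlr2, had 39.4 to 54.8 CPM in the midbrain, 29.7 to 46.6 CPM in the striatum and 21.2 to 47.1 CPM in the PFC. PFC over midbrain was -0.39 ± 0.09 on the log2 scale (adjusted p = 0.00327, edgeR).

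Tlr5, the flagellin receptor, ran opposite to Cd14. It had 6.21 to 12.7 CPM in the midbrain, 10.6 to 17.1 CPM in the striatum and 9.45 to 17.3 CPM in the PFC, and was higher than in the midbrain in the PFC (0.50 ± 0.10, adjusted p = 5.79e-04, edgeR) and the striatum (0.53 ± 0.10, adjusted p = 3.69e-04). Tlr12 too was above its midbrain level in the PFC (0.45 ± 0.10, adjusted p = 0.00203). Tlr8 and Tlr11 averaged under 1 CPM in each region and did not pass the test.

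Of 16 accessory and trafficking proteins, 7 had a region effect. Ctss, an endosomal protease that processes Toll-like receptors, lay between 12091 and 16058 CPM in the midbrain, 9953 and 12299 CPM in the striatum and 9712 and 13099.8 CPM in the PFC, and was below the midbrain in 12 of 12 mice in the striatum and in 11 of 11 in the PFC. Its log2 fold changes over midbrain were -0.37 ± 0.05 and -0.32 ± 0.05 (adjusted p = 3.57e-06 and 1.80e-05, edgeR). Ly86, which chaperones the receptor homologue Cd180, was 1372 ± 238 CPM in the midbrain (SD, n = 12) and lower in the PFC (-0.42 ± 0.10, adjusted p = 0.00403) and the striatum (-0.32 ± 0.10, adjusted p = 0.0332). Cd180, the protease Ctsl and the scavenger receptor Cd36, a partner of Tlr2, were also lower in the PFC than in the midbrain, with log2 fold changes of -0.31, -0.29 and -2.91. The level and spread of Cd36 are not given here. What part the midbrain sample with 130.9 CPM of border macrophage markers had in the Cd36 difference is not shown here. The chaperone Cnpy3 was above the midbrain in the striatum by 0.21 ± 0.05 (adjusted p = 0.0127, edgeR), a fold below 1.2, and Lbp stayed at or under 1.79 CPM in every sample. Ly96, the partner of Tlr4, and Unc93b1, which carries the endosomal receptors to their compartment, did not pass the test (adjusted p = 0.796 and 0.619).

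Genes downstream of the receptors were read by list. Beside them, 8.89% of all genes and 11.5% of genes with a mean of at least 8 CPM had a region effect. Of 4 further adaptors, 1 (25%) had a region effect, Ticam2, which serves Tlr4 (PFC over midbrain -0.24 ± 0.07, adjusted p of the region effect 0.0331, edgeR). Ticam1 and Tirap did not, at 0.27 and 0.777. Of 16 kinases and ubiquitin ligases 2 (12.5%) did, a share near that of all genes. They were Ikbkg (0.0422) and the low Ikbke (0.0357), and Irak4, which binds Myd88, did not pass (0.215). Among 9 transcription factors 3 passed (33.3%), Nfkb1 (0.00985), Irf7 (0.0386) and Irf8 (0.0149). Irf8 was below the midbrain in both forebrain regions by -0.15 ± 0.04 and -0.17 ± 0.04, and Irf7 was lower in the PFC by -1.03 ± 0.32.

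Of 14 negative regulators 1 passed (7.14%, beside 8.89% of all genes). It was the ubiquitin ligase Rnf216, with striatum over midbrain at 0.33 ± 0.07 (adjusted p = 0.00197, edgeR). Of 19 cytokines and enzymes whose genes NF-kappaB activates, 3 passed (15.8%, beside 11.5% of genes with a mean of at least 8 CPM). Each of the 3 was lower in a forebrain region than in the midbrain. Il1a was 439.6 to 2504 CPM in the striatum against 1149 to 4328 CPM in the midbrain (log2 fold change -0.82 ± 0.19, adjusted p = 0.00476), Tnf was lower in the striatum by -0.68 ± 0.19 (adjusted p = 0.0219) and Il6 lower in the PFC by -0.69 ± 0.19 (adjusted p = 0.0166). For Tnf and Il1a the region with the lowest mean was the striatum, as for Tlr2 and Myd88. Of the 18 transcripts of the dissociation list 1 had a region effect, Klf6, at 1578 ± 304 CPM in the midbrain (SD, n = 12), 939.7 ± 195 CPM in the striatum (n = 12) and 1109 ± 193 CPM in the PFC (n = 11).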

How the data were processed

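RNA of sorted microglia from 35 samples was analysed. The authors deposited raw counts of read pairs per Ensembl gene, after trimming with Trimmomatic, alignment to GRCm38 with HISAT2 and removal of genes with low expression. The counting tool and the use of strand are not given in the sources used here. Symbols, positions and exon lengths came from GENCODE on GRCm38, and 133 genes of the table have no symbol there.

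The main test was the quasi-likelihood F-test of edgeR 4.0.16 (R 4.3.3), with TMM scaling and robust dispersions, on all 21236 genes and 35 samples. Region and sex entered as additive terms, and the interaction came from a fit of every combination of them. The region effect was called at p under 0.05 after Benjamini-Hochberg adjustment. Pairs of regions needed also an unadjusted p under 0.05 and a fold above 1.2, and sex only the unadjusted p and the fold, after the study's cut-offs. CPM and log2 CPM (prior count 2) used the TMM factors. DESeq2 1.42.0 and limma 3.58.1 served as alternatives, and Python 3.11.15 with pandas 2.3.3 for tables. The fits were tested on simulated data.

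Sample titles carry a number that was read as the mouse. Same-mouse samples deviated together from their group means (mean r = 0.347 over 34 pairs, against -0.0675 over 170 pairs of different mice), so the mouse number pairs the samples. The main model has no block, as in the study, and treats the samples of a mouse as independent. The 9 genes, the pathway lists and the marker lists were chosen with earlier results of these data known. Named pathway genes are those with a region effect and 9 named in any case (Ly96, Unc93b1, Tlr1, Tlr5, Tlr8, Tlr12, Ticam1, Tirap and Irak4). Tlr11 was named in addition. Like genes are the 3 with the highest r for each gene. The NF-kappaB consensus was chosen after the sequences were read.

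Alternatives were DESeq2 and its size factors, stricter filters on low counts, the mouse as a block or as a random effect, a covariate for mice 1 to 6 against 7 to 12 and each of these sets alone, indices of other brain cells and of dissociation transcripts as covariates, other call rules, a fit leaving out the striatum sample of mouse 3, and each mouse left out in turn. The dissociation index together with the block was added after the data were seen.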

Additional observations from a re-analysis of the deposited data

Results flagged for a closer look

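Of the 54 groups of 5 or 6 samples formed by gene, region and sex, 3 had a sample whose gap to its nearest neighbour was large against the group's whole range by Dixon's test at 95%, and chance flags about 1 group in 20. Among the midbrain samples of males, the Tlr7 level of mouse 11 was 136.6 CPM, and the other 5 lay between 152.5 and 160.4 CPM. In the striatum of males, the Cd14 level of mouse 3 was 651 CPM against 848.9 to 949.5 CPM in the others, and this is the sample whose column name and label differ on the region. In the midbrain of females, the Myd88 level of mouse 12 was 388.4 CPM against 174.6 to 252 CPM in the others.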

How the results depend on the processing

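Of all genes, 8.89% had a region effect in the main fit and 14% with the replicate block. For the other alternatives this share is not given, so a changed count need not be particular to the genes counted. The count of the 9 genes with a region effect (4) became 2 with the index of other brain cells and 1 in mice 1 to 6 alone. Without the striatum sample of mouse 3 this count was 3. The count became 5, with Myd88 added, with DESeq2, with its size factors, with either filter on low counts, with the replicate block, with the covariate for mice 1 to 6 against 7 to 12 and with limma-voom, and 6 with the dissociation index and the block. Striatum below midbrain (3) became 4, again with Myd88, under the first 7 of these and in mice 7 to 12 alone, 2 with the index of other brain cells and 1 in mice 1 to 6 alone. For PFC over midbrain (1) the count became 2 with no minimum on the fold. Striatum over PFC (1) gave 2 with DESeq2, with its size factors, with either filter on low counts, with the replicate block, with the covariate for mice 1 to 6 against 7 to 12, in mice 7 to 12 alone, with limma-voom and with no minimum on the fold, and 0 at an adjusted p under 0.05. It stayed at 1 in mice 1 to 6 alone, where the gene called was Cd14 and not Tlr2. Sex (0) gave 2 with no minimum on the fold. Genes of the pathway and dissociation lists with a region effect (21) became 35 with the replicate block and 32 with limma-voom. They numbered 8 for mice 1 to 6 and 11 for mice 7 to 12. With a mouse left out the counts of the 9 genes ran from 3 to 5 for region and 1 to 2 for PFC over midbrain. They ran from 2 to 4 for striatum over midbrain and 1 to 2 for striatum over PFC. For sex they ran from 0 to 1 and for the interaction from 0 to 0. For the pathway and dissociation lists the count ran from 15 to 25. Tlr6 lost its region effect without mouse 2 (adjusted p = 0.0621) or mouse 4 (0.0557), and Myd88 gained one without mouse 2 (0.047) or mouse 5 (0.0164). Over the 25 alternatives an adjusted p under 0.05 was reached 25 times by Cd14, 24 by Tlr2, 23 by Tlr13, 19 by Tlr6, 11 by Myd88 and 1 by Tlr4, the last with the dissociation index and the block, an alternative added after the data were seen. Apart from the values given, the pairing by mouse changed no call.

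Changes of sign occurred only for differences that were not called. Striatum over PFC became 0.0071 for Tlr3 in mice 7 to 12 alone and 0.0038 for Tlr7 in mice 1 to 6 alone, and striatum over midbrain became 0.062 for Tlr4 with the index of other brain cells and -0.077 for Tlr9 in mice 1 to 6 alone. PFC over midbrain became 0.13 for Tlr9 in mice 7 to 12 alone. For Tlr7 it became -9.6e-04 and -2.8e-05 with the filters on low counts, -0.0018 with the dissociation index, -0.035 in mice 1 to 6 alone and -0.0016 without the striatum sample of mouse 3. For Myd88 it became 0.011 with the dissociation index, 0.0199 with that index and the replicate block and 0.076 in mice 1 to 6 alone. With a mouse left out, these ran from -0.058 to 0.019 for Tlr3 (striatum over PFC), -0.019 to 0.015 (Tlr7), -0.228 to 0.0298 (Tlr9) and -0.088 to 0.024 (Myd88) for PFC over midbrain, and -0.046 to 0.17 for Tlr9 (striatum over midbrain). The cause of these changes was not tested. Another scaling moved the median of all genes by at most 0.0021 in size on the log2 scale.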
